A study of Mus musculus with 3 samples.

Results

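Cells of the T lineage that remained after removal of CD45+ cells from the aged mouse thymus were described here. They were selected on their own counts of unique molecular identifiers (UMIs). A called barcode was a member when genes of the mitochondrial genome took under 20% of its UMIs and it held at least 1 UMI of Ptprc, which encodes CD45, at least 2 UMIs of Trbc1 and Trbc2 together, the constant regions of the T cell receptor beta chain, and 0 UMIs of Epcam, Pecam1, Pdgfra and Prss16, which mark epithelium, endothelium, fibroblasts and cortical thymic epithelial cells (TEC). This held for 64 of 17677 called barcodes (0.362%). Levels of these 7 genes are therefore given as a description only, as is every contrast of the members with other barcodes.

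The study sequenced CD45- thymic cells of untreated 20-month-old C57BL/6 mice in 3 libraries, 1 for each group (n = 1). Foxn1Lin female and Foxn1Lin male came from a Foxn1 lineage trace, in which a Cre recombinase driven by the TEC factor Foxn1 switches on tdTomato, and wild type male carried no reporter. Pooled thymi were digested, depleted of CD45+ cells on magnetic beads and then sorted, and the protocol text, the same for all libraries, names female mice only. The title of wild type male says CD45-, while its cell type field says CD45-PECAM1+. With 1 library a group, differences between libraries could not be tested, and all 95% intervals (Clopper-Pearson for shares, exact Poisson for sums) cover counting error only. Where no member held a UMI, the limit given is 3 counts of the total, and it bounds barcodes with a UMI at that depth, not cells that express the gene.

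T cells are made in the thymus from immigrant progenitors. Thymocytes first carry neither co-receptor, then both CD4 and CD8 (double-positive cells of the cortex), and at this stage the recombinase genes Rag1 and Rag2 assemble the T cell receptor alpha chain. Cells whose receptor is positively selected keep one co-receptor, move to the medulla by way of the chemokine receptor CCR7, and leave with the help of S1PR1. The signalling protein THEMIS acts in positive selection, and BCL11B commits and maintains the lineage.

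The rule summed Trbc1 and Trbc2, which are close copies. On GRCm38 with GENCODE vM21, Trbc1 spans chr6:41538218-41539881 and Trbc2 chr6:41546730-41548352, both on the plus strand. The coding part of their first exons was identical at 374 of 375 bases, whereas the rest of the coding sequence differed at 22 of 143 positions and the 3' untranslated parts aligned with 48.6% identity. That rest, joined from 3 exons, is shown 5′ to 3′ with differing bases in capitals (coding spans chr6:41539114-41539662 for transcript Trbc1-202 and chr6:41547610-41548178 for Trbc2-201), as the stretch where reads of both genes can be told apart before the stop codon. Reads that lie wholly in the first exon can rarely be told apart, and the part of this in the counts of each gene was not tested.

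Trbc1: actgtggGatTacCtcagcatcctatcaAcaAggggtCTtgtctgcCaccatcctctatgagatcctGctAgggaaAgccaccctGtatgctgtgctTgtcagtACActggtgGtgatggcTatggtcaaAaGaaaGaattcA

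Trbc2: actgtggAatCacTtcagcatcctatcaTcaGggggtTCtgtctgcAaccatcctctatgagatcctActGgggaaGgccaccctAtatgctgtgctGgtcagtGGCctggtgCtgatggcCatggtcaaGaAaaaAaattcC

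The members were rare in every library. They were 38 of 8616 called barcodes in Foxn1Lin female (0.441%, 0.312 to 0.605), 10 of 3583 in Foxn1Lin male (0.279%, 0.134 to 0.513) and 16 of 5478 in wild type male (0.292%, 0.167 to 0.474). The intervals of the 3 libraries overlapped. The order changed with depth, since 11, 9 and 15 members had 2000 UMIs or more, and with this limit, added after the data were seen, Foxn1Lin female had the lowest share (0.128%, beside 0.251% and 0.274%). Called barcodes found in more than 1 library numbered 25, no member was a member elsewhere, and 1 barcode sequence of a Foxn1Lin female member was also called in Foxn1Lin male.

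The members of Foxn1Lin female were shallower than those of the other libraries. Their UMIs ranged from 614 to 10604 with a median of 1241, against 522 to 8330 with a median of 4684.5 in Foxn1Lin male and 1670 to 18414 with a median of 4293.5 in wild type male. The median number of genes was 876.5, 2072.5 and 1965.5 in the same order, and 21 of 38 Foxn1Lin female members had 1000 genes or fewer, beside 1 of 10 and 0 of 16. Stromal barcodes, defined as those with a UMI of at least 1 of the 4 stromal genes of the rule, no Ptprc UMI and the same mitochondrial limit, had medians of 5506, 8774 and 9121.5 UMIs. The median mitochondrial share of the members was 3.72%, 2.25% and 2.61%.

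**Figure D1:**
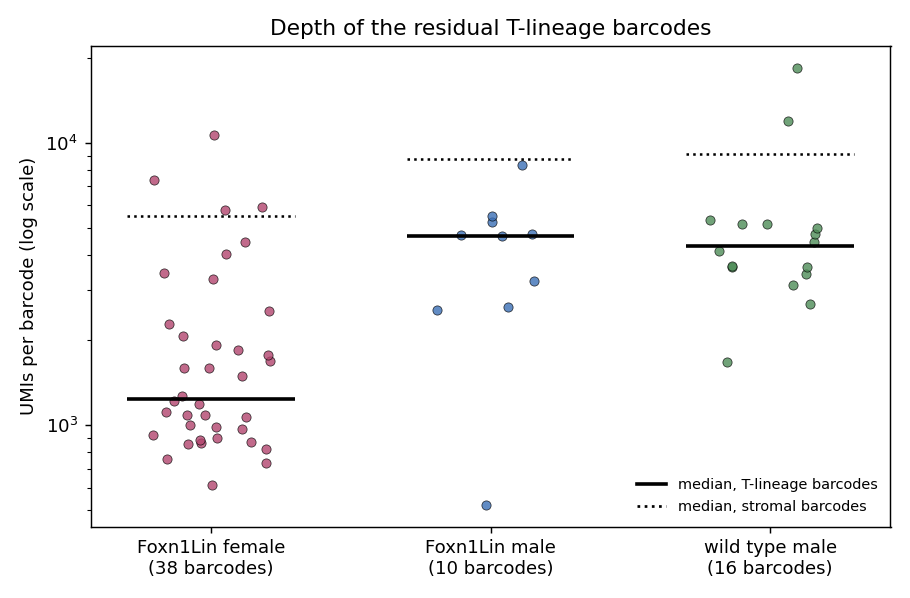
UMIs per barcode (log axis) of the 64 T-lineage barcodes by library, 1 point a barcode, with the median as a solid line and the median of the stromal barcodes of the same library as a dotted line. Most Foxn1Lin female members lie under 2000 UMIs, and 1 Foxn1Lin male and 1 wild type male member do.

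RNA outside the called barcodes was also compared. In barcodes outside the called ones with 20 to 500 UMIs, called empty droplets here, Trbc1 and Trbc2 together stood at 407 counts per 1e6 UMIs (CPM) in the Foxn1Lin female library, at 131 in that of Foxn1Lin male and at 78.3 in that of wild type male. These droplets were unlike in depth, with medians of 253, 44 and 53 UMIs. At the median depth of the members, these levels would give 0.505, 0.616 and 0.336 Trbc UMIs, and members with exactly 2 numbered 17, 0 and 1. Droplets of this range can also hold damaged or small cells, which were not told apart from free RNA. The part of free RNA in the membership of the shallow barcodes was not tested.

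Of the genes that chose them, Trbc1 summed to 112 UMIs over the Foxn1Lin female members, 113 over those of Foxn1Lin male and 80 over those of wild type male, and Trbc2 to 82, 76 and 149 in the same order. By counts, 17 members held Trbc1 without Trbc2, 19 held Trbc2 without Trbc1 and 28 held both, and of the 32 members with 5 or more Trbc UMIs, 18 held both. A member held at most 8 Ptprc UMIs in Foxn1Lin female, at most 15 in Foxn1Lin male and at most 89 in wild type male, and 21 of 64 members had a single Ptprc UMI.

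Just outside the limit, 34, 5 and 2 barcodes had 1 Trbc UMI and met every other part of the rule. Their median depth was 1242.5, 698 and 4235.5 UMIs, and Themis was found in 16, 5 and 1 of them. Just inside, Themis was found in 14 of the 17 Foxn1Lin female members at 2 Trbc UMIs, with a median of 1001 UMIs. The mitochondrial limit alone kept out 3, 2 and 0 barcodes.

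Genes the rule did not use were described next, and their counts are no test of the T-lineage label. At least 1 UMI of Themis or Bcl11b was found in 62 of 64 members, and a UMI of Cd3d, Cd3e, Cd3g, Themis or Bcl11b in 63. At an equal depth of 1000 UMIs, Themis or Bcl11b was found in 23 of 26 Foxn1Lin female members (88.5%, 69.8 to 97.6), in 8 of 9 of Foxn1Lin male (88.9%, 51.8 to 99.7) and in 14 of 16 of wild type male (87.5%, 61.7 to 98.4), against 5.06%, 0.478% and 0.91% of stromal barcodes. Without thinning, both genes were found in 18 of 38, 9 of 10 and 13 of 16 members. In stromal barcodes both were found in 1.2%, 0.0785% and 0.142%. At 1000 UMIs both were found in 8 of 26, 4 of 9 and 8 of 16 members. Empty droplets held both genes together at a level that would give 0.904, 1.77 and 0.321 UMIs at the median depth of the members. The part of free RNA was not tested. Themis had 152 UMIs in Foxn1Lin female members (lowest 0, median 2, highest 20), 120 in Foxn1Lin male members (2, 10 and 49) and 168 in wild type male members (0, 8 and 27). Expressed per depth these were 1834 CPM (1554 to 2150), 2850 (2363 to 3407) and 1951 (1667 to 2269). The levels per depth lay closer together than the counts per member, and without the member of 49 UMIs the level of Foxn1Lin male was 1896 CPM. In stromal barcodes Themis stood at 26.4, 1.87 and 0.726 CPM and in empty droplets at 576, 251 and 44.6. Barcodes with Ptprc but no Trbc or stromal UMI, 160, 27 and 9 in number, held Themis at 307, 675 and 0 CPM. Themis is a gene of 215459 bases and reads in introns were counted, so its level cannot be set against that of short genes.

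Bcl11b was found in 23 of 38, 9 of 10 and 15 of 16 members, at 808, 997 and 581 CPM, beside 152, 127 and 30.1 CPM in empty droplets. Cd3e, a signalling chain of the T cell receptor complex, was found in 16 of 38, 8 of 10 and 15 of 16 members, at 434, 760 and 464 CPM, beside 92.0, 27.2 and 8.53 CPM in empty droplets. Members without any Cd3d, Cd3e or Cd3g UMI numbered 17, and their median depth was 1081 UMIs, beside 3615 for the 47 members with one. All 22 genes of the list of further T-lineage genes had a UMI in the members of each library. The chromatin organiser Satb1 was found in 61 of 64 members, Skap1, an adaptor of T cell receptor signalling, in 58 and the receptor chain Cd247 in 56. Trac, the constant region of the alpha chain, was found in 5, 7 and 10 members, and variable segments of either chain were rarely seen, with Trbv UMIs in 2, 1 and 2 members and Trav UMIs in 7, 0 and 3.

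**Figure D2:**
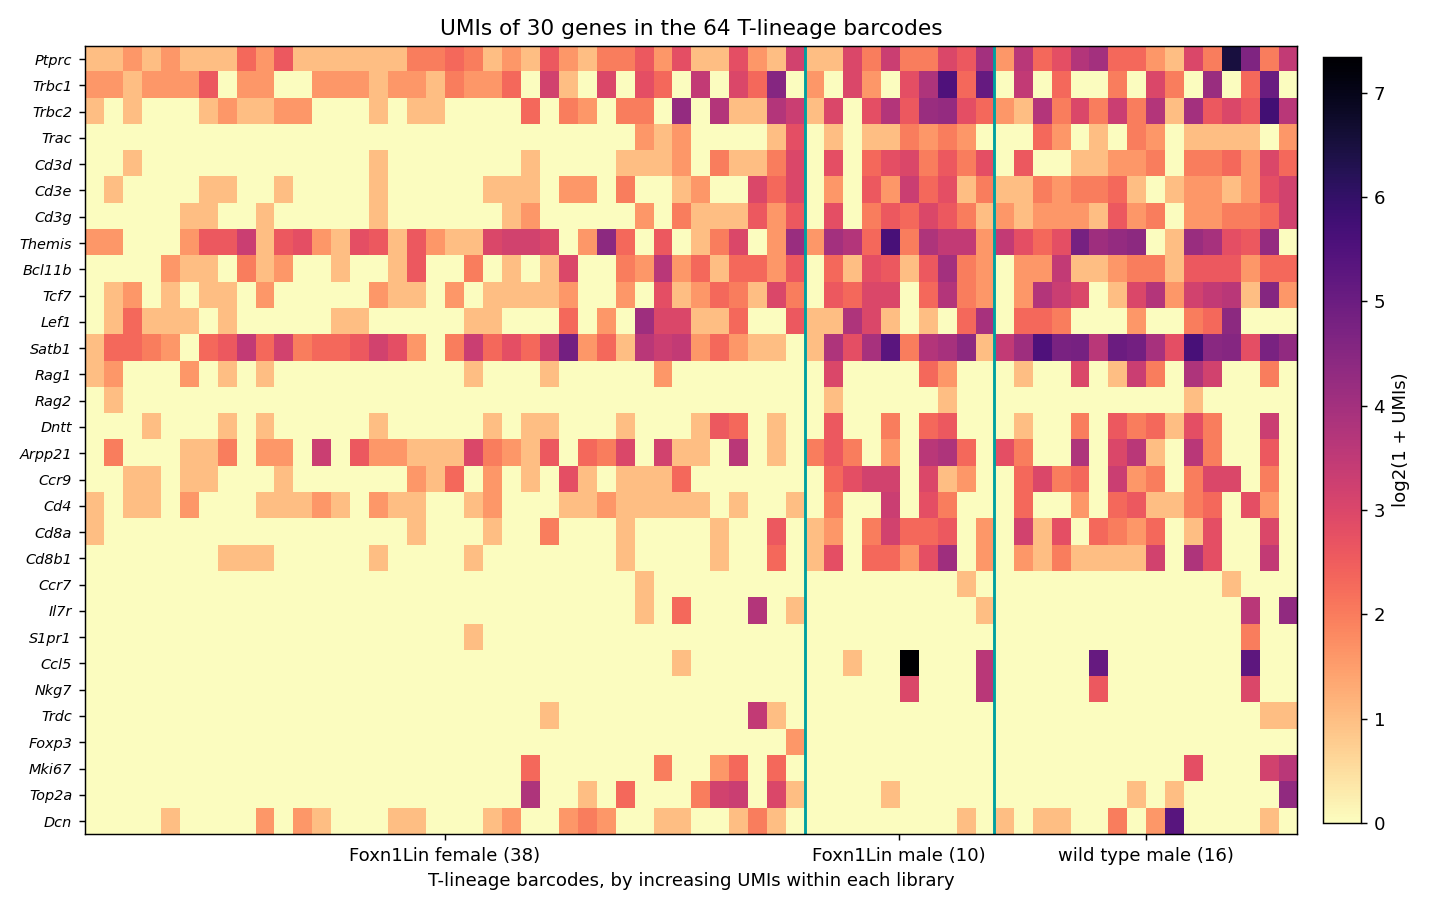
UMIs of 30 genes (rows) in each of the 64 T-lineage barcodes (columns), on a log2(1 + UMIs) color scale, with libraries set apart by lines and barcodes ordered by depth within a library. Themis and Satb1 run through nearly all columns, Rag1, Dntt and Arpp21 through many, and Ccr7, S1pr1 and Foxp3 appear in few.

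Transcripts of genes known from the double-positive stage were found in most members. At least 1 of Rag1, Rag2, Dntt and Arpp21 was found in 46 of 64 members, and 2 or more of the 4 in 26. At 1000 UMIs at least 1 was found in 17 of 26 (65.4%, 44.3 to 82.8), 6 of 9 (66.7%, 29.9 to 92.5) and 8 of 16 members (50%, 24.7 to 75.3), against 3.28%, 0.358% and 0.239% of stromal barcodes. Empty droplets held the 4 genes together at 442, 217 and 68.1 CPM, which at the median depth of the members would give 0.549, 1.02 and 0.292 UMIs, and the part of free RNA in these counts was not tested. Rag1 had 11 UMIs in 8 Foxn1Lin female members (highest 2), 13 UMIs in 3 Foxn1Lin male members (highest 7) and 45 UMIs in 8 wild type male members (highest 13). Per depth this was 133 CPM (66.3 to 237), 309 (164 to 528) and 522 (381 to 699), against 3.76, 0.359 and 0.497 in stromal barcodes and 49.6, 36.3 and 22.2 in empty droplets. The intervals of Foxn1Lin female and wild type male did not overlap. Without the highest member of each library the levels were 110, 152 and 394 CPM. Whether depth has a part in this was not tested. Rag2 had 1, 2 and 1 UMIs.

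At an equal depth of 1000 UMIs, Rag1 was found in 0 of 26 Foxn1Lin female members, which allows a share with a UMI of up to 11.5% at this depth, in 2 of 9 Foxn1Lin male members (22.2%, 2.81 to 60.0) and in 3 of 16 wild type male members (18.8%, 4.05 to 45.6). Shallower members, 12 in Foxn1Lin female and 1 in Foxn1Lin male, were left out here. The limit does not carry over to other depths. At 500 UMIs, where no member was left out, the shares were 15.8%, 10% and 18.8%, so that Foxn1Lin female was not the lowest there. Without thinning the shares were 21.1%, 30% and 50%. Of the 8 Foxn1Lin female members with a Rag1 UMI, 7 had under 2000 UMIs. In stromal barcodes a Rag1 UMI was found in 1.96%, 0.275% and 0.38% without thinning, at greater median depth than in the members.

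Dntt, which encodes the polymerase that adds bases at receptor joints, was found in 12 of 38, 4 of 10 and 9 of 16 members at 229, 404 and 406 CPM, beside 68.6, 35.0 and 12.4 CPM in empty droplets. Arpp21, a gene of immature thymocytes, was found in 26 of 38, 7 of 10 and 9 of 16 members at 1050, 974 and 697 CPM, beside 312, 141 and 30.9 CPM in empty droplets. Ccr9, a homing receptor of thymocytes, was found in 16, 7 and 11 members. Of the list of 8 early thymocyte genes, Cd44, an adhesion receptor that stroma expresses as well, had 18 UMIs in 9 members, and Il2ra, a cytokine receptor chain, had 9 UMIs in 4. Hes1 had 7 UMIs and Notch1 6, and Ptcra, the surrogate alpha chain, and Kit had 1 UMI each in all members together. The list summed to 217, 237 and 209 CPM, beside 289, 327 and 393 CPM in empty droplets.

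Both co-receptors were found in 19 of 64 members. Without thinning, UMIs of Cd4 together with Cd8a or Cd8b1 were found in 7 of 38 Foxn1Lin female members (18.4%, 7.74 to 34.3), 4 of 10 Foxn1Lin male members (40%, 12.2 to 73.8) and 8 of 16 wild type male members (50%, 24.7 to 75.3). Cd4 alone was found in 17, 0 and 2 members, Cd8 alone in 5, 4 and 3, and neither in 9, 2 and 3. Most of the 19 members with Cd4 alone rested on little, as 15 of them had a single Cd4 UMI. In stromal barcodes both co-receptors were found in 0.525%, 0% and 0.0474% at greater median depth, where the count of 0 allows up to 0.118%.

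At 1000 UMIs the double-positive share was 2 of 26 (7.69%, 0.946 to 25.1), 3 of 9 (33.3%, 7.49 to 70.1) and 1 of 16 (6.25%, 0.158 to 30.2). At this depth all 3 intervals overlapped. The share of wild type male moved from 50% to 6.25% with thinning alone, so a member with 1 co-receptor or none at this depth cannot be called single-positive or double-negative. Of the 19 double-positive members found without thinning, 14 had a Rag1 UMI, beside 5 of the other 45, and all 5 of these were of Foxn1Lin female. By library, 3 of the 8 members with a Rag1 UMI were double-positive for Foxn1Lin female, 3 of 3 for Foxn1Lin male and 8 of 8 for wild type male. The median depth of the 19 was 3615 UMIs and that of the 5 was 888, and the part of depth in this was not tested. All 19 had a UMI of at least 1 of Rag1, Rag2, Dntt and Arpp21, and none had a UMI of Ccr7 or Il7r.

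**Figure D3:**
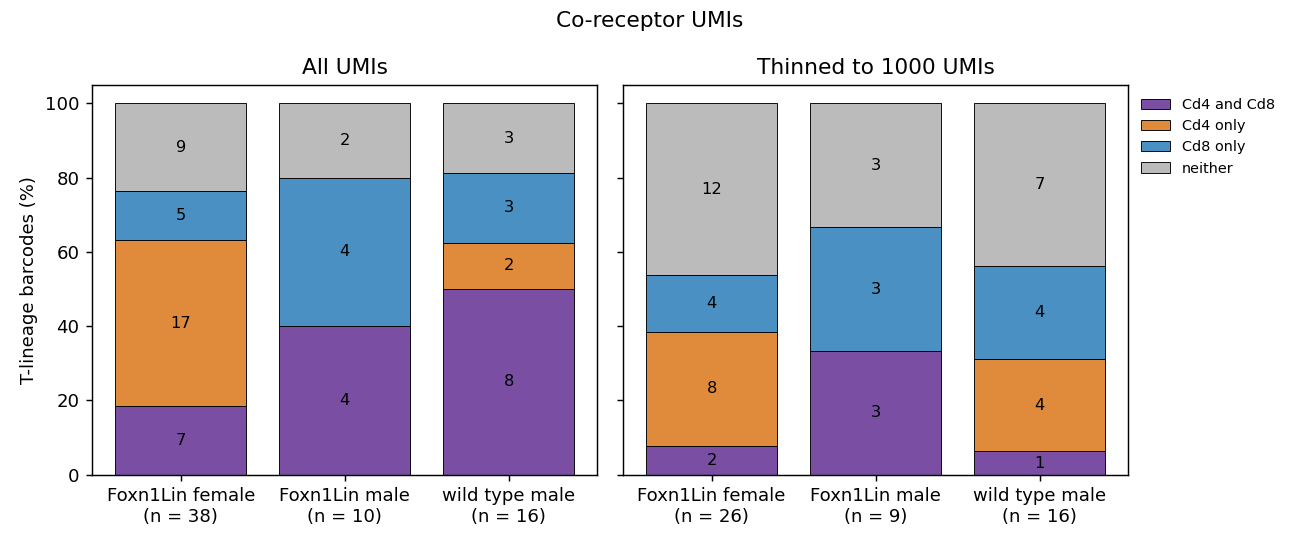
Percent of T-lineage barcodes with UMIs of Cd4 and Cd8 (Cd8a or Cd8b1), of either alone or of neither, by library, with all UMIs at left and after thinning each barcode to 1000 UMIs at right. Numbers in the bars are barcodes, and the double-positive class of wild type male falls from 8 to 1 of 16 with thinning.

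By level, both Cd8 chains were lower in the members of Foxn1Lin female than in those of the other libraries. Cd8a stood at 157 CPM (83.5 to 268), 689 (461 to 989) and 488 (351 to 659), and Cd8b1 at 133 (66.3 to 237), 974 (699 to 1321) and 546 (401 to 726). Cd4 stood at 350 (234 to 503), 499 (309 to 762) and 372 (254 to 525) CPM, and without its highest member at 320 CPM in Foxn1Lin male. The Cd8 intervals of Foxn1Lin female lay below those of both other libraries, whereas the Cd4 intervals overlapped throughout. In Foxn1Lin male 39.0% of the Cd8b1 UMIs came from 1 member, which the intervals do not take into account. Without the highest member of each library, Cd8a stood at 106, 561 and 408 CPM and Cd8b1 at 92.7, 678 and 419. At 1000 UMIs a Cd8b1 UMI was found in 2 of 26 (7.69%, 0.946 to 25.1), 6 of 9 (66.7%, 29.9 to 92.5) and 5 of 16 members (31.2%, 11 to 58.7), and here too Foxn1Lin female lay below Foxn1Lin male but overlapped wild type male. In empty droplets Cd8b1 was at 74.8, 40.1 and 12.6 CPM.

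Receptors of late maturation and egress were scarce. Ccr7 was found in 3 of 64 members, 1 in each library and each with 1 UMI, at 12.1, 23.7 and 11.6 CPM. Stromal barcodes held 10.9, 20.3 and 18.9 CPM and empty droplets 13.3, 39.8 and 15.1, so that Ccr7 in the members was not distinguishable from background at this depth. At 1000 UMIs it was found in 0 of 26, 0 of 9 and 0 of 16 members, which allows shares with a UMI of up to 11.5%, 33.3% and 18.8% at this depth. No member held both Ccr7 and Rag1. S1pr1 had 1, 0 and 3 UMIs, in 2 members. Klf2, a factor of mature T cells that stroma expresses as well, had 9, 0 and 9 UMIs, at 109, 0 and 104 CPM against 636, 636 and 347 CPM in stromal barcodes. Other genes of the mature list were found in more members. Cd52, a surface protein of lymphocytes, was found in 6, 3 and 7 members, and Ms4a4b in 1, 3 and 2. No background was set beside these counts. Of the genes that set the choice between both lineages, Zbtb7b of CD4 cells was at 0 in all members and Runx3 of CD8 cells was found in 9.

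Il7r, the receptor for a survival cytokine of progenitors and mature T cells, was found in 7 members and 0 of the 19 with Rag1 or Rag2. It had 18 UMIs in 4 Foxn1Lin female members, 1 UMI in 1 Foxn1Lin male member and 30 UMIs in 2 wild type male members. In each library most came from 1 barcode, with 12, 1 and 19 UMIs. Il7r members had a median of 5919 UMIs, and 7 of 7 had 2000 or more.

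Themis, the gene of selection, was found at 1000 UMIs in 18 of 26 (69.2%, 48.2 to 85.7), 7 of 9 (77.8%, 40.0 to 97.2) and 12 of 16 members (75%, 47.6 to 92.7). The intervals of the 3 shares overlapped, and stromal barcodes at that depth held it in 3.69%, 0.199% and 0.0239%. The 10 genes of the positive selection and signalling list differed among themselves. Tox, a nuclear factor of selected thymocytes, was found in 45 members at 1641, 1757 and 1881 CPM, beside 50.4, 75.9 and 116 CPM in stromal barcodes and 264, 170 and 104 in empty droplets. Ikzf2, a zinc finger factor, was found in 32 members at 1134, 1496 and 2694 CPM, beside 39.2, 47.9 and 78.3 CPM in stromal barcodes, but in each library 1 member held about as many of its UMIs as all others together (50%, 46.0% and 52.2%), and without that member the levels were 650, 929 and 1371 CPM. Of the genes induced by receptor signalling, Egr1 was found in 17 members at 422, 23.7 and 244 CPM, below its 1320, 1337 and 1751 CPM in empty droplets. Of its UMIs, 16 of 35 in Foxn1Lin female and 20 of 21 in wild type male came from 1 member, without which the levels there were 252 and 12.3 CPM. Cd69 was found in 3 members and Egr2 in 0, and Nr4a1 stood at 84.5, 23.7 and 221 CPM, beside 159, 326 and 189 CPM in stromal barcodes, with 136 CPM in wild type male without its highest member.

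**Figure D4:**
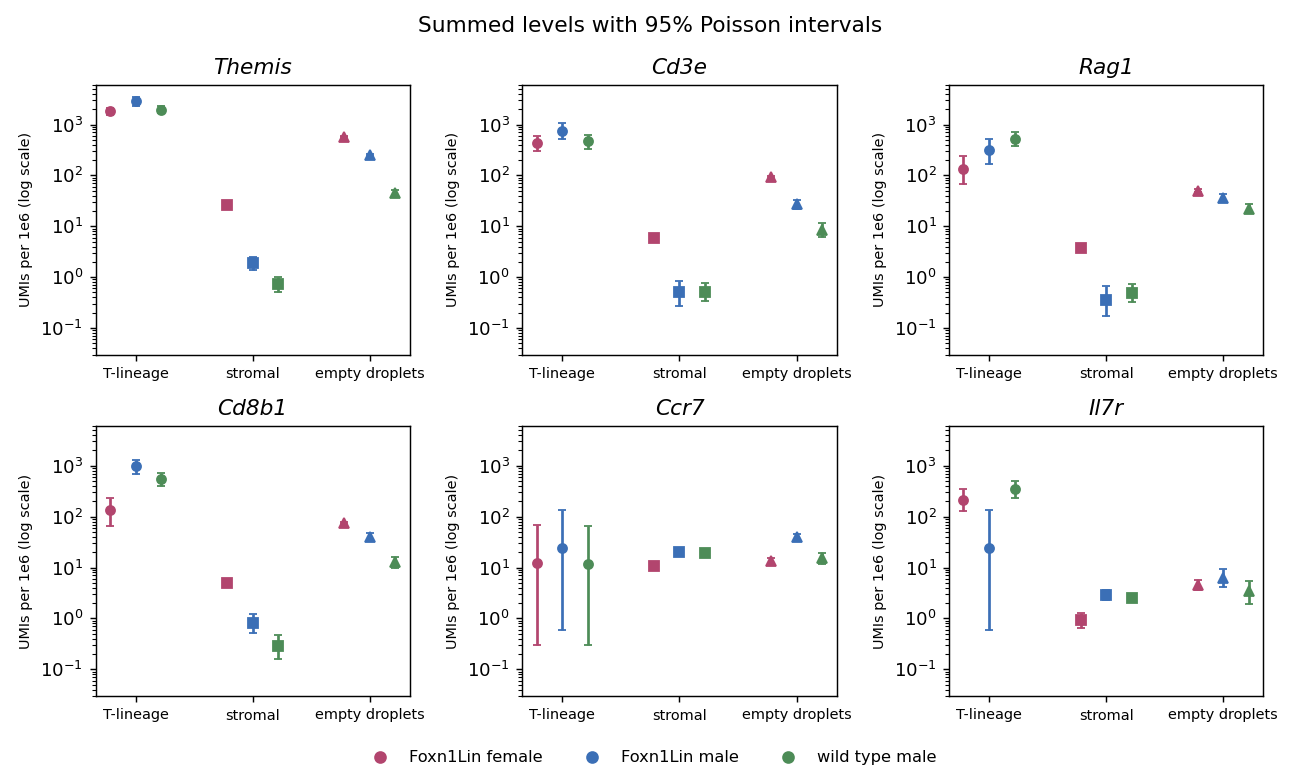
Summed levels of 6 genes in UMIs per 1e6 (log axis) with 95% Poisson intervals, for T-lineage barcodes (circles), stromal barcodes (squares) and empty droplets (triangles) of the 3 libraries. Themis, Cd3e, Rag1 and Cd8b1 are highest in T-lineage barcodes, and Ccr7 lies at a like level in all 3 populations.

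Genes of other T-cell lists were found in a few members. Of the 18 members with none of Rag1, Rag2, Dntt and Arpp21, 9 held Il7r, Ccr7 or Foxp3, or both Ccl5 and Nkg7. At least 1 UMI of each counted here. The 9 had a median of 5327 UMIs and the other 9 of 1069, and the part of depth was not tested. Il7r was found in 6 of the 18 and in 7 of all 64 members. Ccr7, not distinguishable from background, was found in 2 of the 18 and in 3 of the 64. The chemokine Ccl5 and the granule gene Nkg7 occurred together in 4 members, 2 of Foxn1Lin male and 2 of wild type male. Their Ccl5 UMIs were 161 and 11, and 33 and 37. All 4 held Themis and none held a Rag gene. One of them, with 161 Ccl5 UMIs, also held Cxcr6 at 11 UMIs, Pdcd1 at 9 and Cd8a at 4.

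Single barcodes stood out further. A Foxn1Lin female member of 5919 UMIs held Trdc, the constant region of the delta chain, at 10 UMIs, Trdv4 at 9, Cd163l1 at 13, Il7r at 12 and Zbtb16 at 7, with Themis, Cd4 and Cd8a at 0. Another, of 10604 UMIs, was the only one with Foxp3, the regulatory T cell factor, at 2 UMIs, with Ikzf2 at 47, Tnfrsf4 at 6 and Tnfrsf18 at 4. A wild type male member of 5170 UMIs held Ptprc at 89, Ikzf2 at 121, Tox at 45 and Cd5 at 10 UMIs, with both co-receptors at 0. The deepest member, of 18414 UMIs in wild type male, held Zbtb16, a factor of innate-like T cells, at 45, Ikzf2 at 59, Il7r at 19 and Top2a at 19, with Themis at 0. It was the only member among the highest doublet scores, which were taken up to 3.9% of called barcodes. No class is named from single barcodes.

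Cycling genes were found in part of the members. Mki67 or Top2a, which mark dividing cells, occurred in 15 members with a median of 4663 UMIs, of which 14 held Themis and 5 both co-receptors. Top2a had 46 UMIs in 8 Foxn1Lin female members, 1 UMI in Foxn1Lin male and 21 UMIs in 3 wild type male members, 19 of them in the deepest member, the one among the highest doublet scores. The cycling list stood at 1689, 190 and 1684 CPM, against 165, 169 and 219 in stromal barcodes. That deepest member held 78 of the 145 UMIs of the list in wild type male, and without it the level there was 989 CPM.

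Genes of other cell types were low but not all absent. B-lineage genes Cd79a, Ms4a1, Ighd and Pax5 were at 0 in all members, as were Tyrobp, Cd68, C1qa, Itgam and Fcer1g of the myeloid list and Itgax, Xcr1 and Siglech of the dendritic list. Of the other genes of these lists, Cst3 was found in 15 members, H2-Aa in 13, Zbtb46 in 2, and Lyz2, Csf1r and Flt3 in 1 each. The myeloid list summed to 205, 23.7 and 81.3 CPM, beside 1083, 1192 and 652 in empty droplets, and the dendritic list to 121, 71.2 and 46.4 CPM, beside 848, 1616 and 1447. Fibroblast genes were found in 33 members, epithelial genes in 25, endothelial genes in 15 and mural genes in 10. The fibroblast list summed to 579, 95 and 836 CPM in the members, below its 3558, 3545 and 3938 CPM in empty droplets. The B-lineage list, in which Ighm and Ebf1 held most of the counts, summed to 314, 95 and 325 CPM against 512, 646 and 1306 in empty droplets. Hemoglobin and other erythroid genes were found in 14 Foxn1Lin female members and in 0 of the others. One wild type male member held 60 of these stromal-list UMIs, with Dcn at 40, Col1a2 at 7 and Col3a1 at 7, whereas the highest count in any other member was 10. The reporter tdT-WPRE had 3 UMIs in 3 Foxn1Lin female members and 2 in 2 Foxn1Lin male members, at 36.2 and 47.5 CPM against 237 and 556 CPM in empty droplets. It was at 0 in wild type male.

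Against stromal barcodes, 751 genes had at least 10 UMIs in the members of each library, the genes of the rule left out. Of these, 138 (18.4%) were at least 4-fold higher in CPM in each of the 3 libraries. The rule made this contrast, because stromal barcodes were required to lack Ptprc, and nothing is read from the count. The limit of 10 UMIs was met by 18 of the 22 further T-lineage genes, 9 of the 12 double-positive genes and 2 of the 10 mature and egress genes, and as it selects genes that are high in the members, nothing is read from how these lists fared. Without Foxn1Lin male, which had the fewest members, the count was 209.

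Among the 20 genes with the highest ratio, ranked by their lowest library, were Pdcd1, Sh2d1a, Gm26740, Cd3g, Cd5, Arhgap15, Rhoh, Cd3e, Lef1, Arpp21, Trat1, Themis, Cd3d, Ptprcap, Cd4, Skap1, Ikzf3, Satb1 and Stat4. Cd3g was 102-fold, 3210-fold and 433-fold higher in the members, Rhoh, a GTPase of blood cells, 76.0-fold, 721-fold and 1107-fold, and Themis 69.4-fold, 1525-fold and 2686-fold. The ratios of Foxn1Lin female were the lowest throughout these examples, and the stromal barcodes of that library held the most RNA of the further T-lineage list (455 CPM, beside 309 and 291). Pdcd1, an inhibitory receptor, headed the list on few barcodes, being found in 2, 2 and 3 members.

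Foxn1Lin female and Foxn1Lin male members differ in sex and library. Of 1277 genes with at least 20 UMIs over both, 65 differed at least 4-fold (5.09%), 47 higher in Foxn1Lin female and 18 lower. The members held 82879 and 42111 UMIs in all, and the part of this difference in the directions was not tested. The highest ratios were those of Lars2 (989 against 23.7 CPM), Fos (688 against 23.7), Cmss1 (3004 against 119), Gm42418 (25797 against 1092) and Top2a (555 against 23.7). Lars2, Cmss1 and Gm42418 moved the same way in stromal barcodes, at 1423, 3296 and 34795 CPM in Foxn1Lin female and 107, 275 and 6104 CPM in Foxn1Lin male. Of the Fos UMIs, 73.7% came from 1 barcode.

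Higher in Foxn1Lin male were Ccl5 (4108 against 12.1 CPM), Ms4a4b (451 against 12.1), Pfn1 (974 against 72.4), Gm2682 (475 against 0) and Cd8b1 (974 against 133). Ccl5 and Gm2682 rested on single barcodes, as 93.1% and 100% of their UMIs in Foxn1Lin male came from 1 member, and Ms4a4b did so for 52.6%. Pfn1, a regulator of actin, was found in 8 of 10 members there, and it moved the same way in stromal barcodes, at 58.0 CPM in Foxn1Lin female and 430 CPM in Foxn1Lin male. Gm2682 was at least 13.1-fold higher there, with 3 counts set as the limit for 0. Cd8b1 was 7.34-fold higher (3.70 to 15.8) and was found in 8 of 10 members against 8 of 38.

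Foxn1Lin male and wild type male members differ in genotype and library, and one label of wild type male says CD45-PECAM1+. Between them, 85 of 1465 genes differed at least 4-fold (5.8%), 9 higher in Foxn1Lin male and 76 lower. The members held 42111 UMIs in Foxn1Lin male and 86127 in wild type male, and the part of this difference in the directions was not tested. Gm2682, Csmd1, Kcnq5, Arid5b and AW112010 had the highest ratios, and 61.3% to 100% of the UMIs of each came from 1 member. The lowest were those of Dcn (23.7 against 569 CPM), Plcxd2 (23.7 against 406), Tuba1b (23.7 against 372), Il7r (23.7 against 348) and Tmpo (23.7 against 279), each with 1 UMI in Foxn1Lin male. Of these, Plcxd2 was spread most widely, over 12 of 16 wild type male members with 22.9% of its UMIs in 1, and it was 17.1-fold higher there (2.88 to 695). For Dcn, Tuba1b, Il7r and Tmpo, 63.3% to 81.6% of the UMIs came from 1 member.

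The stromal part of the rule kept out more T-cell receptor barcodes than it let in. Ptprc and at least 2 Trbc UMIs together with a UMI of a stromal gene were found in 119, 23 and 86 barcodes, with median depths of 14688, 7168 and 21516 UMIs. Pecam1 was the stromal gene in 160 of these 228 barcodes, Prss16 in 115, Epcam in 113 and Pdgfra in 37. A single stromal UMI kept out 40 of them.

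Pecam1 alone kept out 24, 17 and 33 barcodes, 74 in all, which is more than the 64 members. PECAM1 is an endothelial adhesion protein that leukocytes carry as well. Of these 74, 47 had no UMI of the other 8 endothelial genes of the list, at median depths of 2004.5, 4690 and 5406 UMIs. Among stromal barcodes with a Pecam1 UMI, that was so for 9.66%, 10.5% and 14.7%, at median depths of 4347.5, 7964 and 8479. The 47 barcodes were chosen on Ptprc and Trbc, as the members were. Themis was found in 43 of them, Rag1 in 21, Ccr7 in 5 and both co-receptors in 24. Of the 64 members, the same were found in 55, 19, 3 and 19. No background was set beside the counts of the 47. Their Pecam1 stood at 496, 520 and 498 CPM, with at most 21 UMIs in a barcode, beside 881, 1211 and 1052 CPM in the stromal barcodes with a Pecam1 UMI. With Pecam1 not required to be 0, an alternative added after the data were seen, the share of called barcodes was 0.72%, 0.754% and 0.894%, and wild type male then had the highest share in place of Foxn1Lin female. The part of the PECAM1 gate named in one label of wild type male was not tested.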

How the data were processed

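The deposited matrices give raw UMI counts of each gene in called and in all barcodes, which the authors made with Cell Ranger 7.0.1 on GRCm38 with reporter sequences added. Reads in introns were counted. Counts were used as deposited, for 32293 features, and each library was read on its own. The members and gene lists were chosen with earlier results of these data known. Named genes were those of the lists, the 20 raised genes with the highest lowest-library ratio, and the 5 highest and 5 lowest ratios of each library comparison, and other single barcodes were picked after their values were seen. Some genes of the lists are not reported here. Ratios are of CPM summed over barcodes. Thinning drew 1000 UMIs per barcode with fixed seeds. Empty droplets, 20 to 500 UMIs outside called barcodes, were set after the files were seen. Doublets were scored with Scrublet in scanpy 1.11.5 and kept, except in 1 alternative. Intervals came from scipy 1.17.1. The code that counts fold differences between libraries was checked on simulated counts. Sequences are from GENCODE vM21. Called barcodes held 53366016, 33386621 and 61258534 UMIs, in the order Foxn1Lin female, then Foxn1Lin male, then wild type male. The few members set the width of the intervals of shares of members.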

Additional observations from a re-analysis of the deposited data

Results flagged for a closer look

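Outside the called barcodes, 25 barcodes of Foxn1Lin female met the rule for members, against 1 in wild type male and 0 in Foxn1Lin male. They held 133 to 1075 UMIs with a median of 309, and Themis was found in 4 of them, Cd3e in 2 and Arpp21 in 2. The empty droplets of that library also had the highest Trbc level (407 CPM), and the part of free RNA in these barcodes was not tested.

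Zbtb16, a factor of innate-like T cells, had ratios of members to stromal barcodes on opposite sides of 1 in the male libraries, and the higher one rests on 1 barcode. It was 15.1-fold higher in the members of wild type male, where all 45 UMIs came from 1 member, and at 0 UMIs in the members of Foxn1Lin male, against 144 CPM in stromal barcodes. That member was the only one among the highest doublet scores, and without it the members of both libraries hold 0 UMIs. The difference between the libraries was not tested.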

How the results depend on the processing

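No paired analysis was possible because each group has a single library and no result comes from a test. Of 204 alternative values, 171 stayed within the Clopper-Pearson interval of the value reported, or within 1.5 times a count, and 33 moved. The share of members among called barcodes moved under more alternatives in Foxn1Lin female than in the other libraries (reported 0.441%): 0.836% with at least 1 Trbc UMI, 0.244% with at least 3, 0.232% with at least 2 Ptprc UMIs, 0.174% with 6 further stromal genes at 0 and 0.197% with over 1000 genes, and, for alternatives added after the data were seen, 0.72% with Pecam1 allowed and 0.128% with at least 2000 UMIs. With the 4 stromal genes allowed it was 1.82% there, 0.921% in Foxn1Lin male and 1.86% in wild type male. With Pecam1 allowed it was 0.754% in Foxn1Lin male and 0.894% in wild type male, and with the further stromal genes at 0 it was 0.11% in wild type male.

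The double-positive share fell to 0% in Foxn1Lin female with at least 3 Trbc UMIs, with at least 2 Ptprc UMIs and with thinning to 2000 UMIs, and in wild type male it was 40% with thinning to 2000 and 50% without thinning. The Rag1 share in Foxn1Lin female was 12.1% with the 4 stromal genes allowed, above the limit of 11.5% that 3 counts give though within that interval, and was 15.8% with thinning to 500 UMIs and 21.1% without, and in wild type male 46.7% with thinning to 2000 and 50% without. Themis fell to 38.3% in Foxn1Lin female with stromal genes allowed and was 100% in Foxn1Lin male with thinning to 2000 or none. The Ccr7 share, reported as 0% in each library, lay between 0% and 11.1% over its 39 alternatives, and the few members leave its intervals too wide to show stability. Genes raised over stromal barcodes numbered 268 at 2-fold, 88 at 8-fold and 20 with at least 50 UMIs. Leaving out 1 library gave 165 to 209 in place of 138, the highest without Foxn1Lin male. The counts between Foxn1Lin female and Foxn1Lin male were 304 at 2-fold and 17 with at least 50 UMIs, and between Foxn1Lin male and wild type male 382 and 12. These follow from the limits themselves. The few members, 10 in Foxn1Lin male, set the width of the intervals of shares of members.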
